A study of Rattus norvegicus with 35 samples.

Results

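The neprilysin family of zinc metallopeptidases was examined in the olfactory epithelium of Brown Norway rats at 3 ages. Its members here were Mell1, Mme, Ece1, Ece2, Ecel1 and Phex, found on the arrays by gene symbol, and they were represented by 8 of the 41012 probes. They are 6 of the 13561 gene symbols on the arrays. These genes were chosen by their measured log2 intensities in the litters, adult and old rats, so their age differences are given as a description, with no test. The samples were 19 newborn pups of 3 to 5 days of age in 4 litters (L1 with 4 pups, L2, L3 and L4 with 5 pups each), 4 male adult rats of 9 weeks and 4 male old rats of 22 months. The sex of the pups was not known, 1 side of the nose was taken from each pup, and each adult or old rat gave 2 arrays, for its sides A and B. The 35 arrays carried 1 dye. The labels name no treatment or allele.

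Most neprilysin family enzymes sit in the cell membrane with their active site outside the cell, where they cut short peptides. Mme is neprilysin itself, which inactivates enkephalins, tachykinins and natriuretic peptides. Mell1, now called Mmel1 and also known as neprilysin 2, is its closest relative and acts on a similar range of peptides. Ece1 and Ece2 are endothelin converting enzymes, which release active endothelins from their precursors. Ecel1 is an enzyme of neurons needed for motor nerve endings to form, and Phex, made by bone cells, restrains the loss of phosphate. The symbol Mell1 was matched with Mmel1 through the synonyms of a RefSeq gene table, since the array's own description of that probe names an oncogene. Kel, another gene of the family, was looked for by symbol and no probe was found for it.

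Levels are given as the log2 of a probe's intensity over the median of its array, so that 0 is the median probe, and levels of different probes cannot be compared. The value of an adult or old rat is the mean of its 2 arrays, and the newborn mean is the mean of the 4 litter means. Mell1 was represented by 1 probe of 60 bases at chr5:171712132-171712191 on the plus strand of build rn3, and Ece2 by 1 probe at chr11:82553119-82553946 on the minus strand, whose 60 bases were spread over 828 bases of the genome. Their sequences are shown in lower case, that of Mell1 because it carried the largest age difference of the family and that of Ece2 as an example of a probe that aligns across a gap in the genome.
Mell1: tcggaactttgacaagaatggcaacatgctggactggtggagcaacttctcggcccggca
Ece2: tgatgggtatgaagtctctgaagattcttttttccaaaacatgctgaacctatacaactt
The Mme probe lay at chr2:153064246-153064305, the Ecel1 probe at chr9:86117449-86117508 and the Phex probe at chrX:59221448-59221507. Ece1 had 3 probes, at chr5:156747337-156747396 (A_42_P839121), chr5:156701313-156706980 (A_44_P195356) and chr5:156745707-156745766 (A_44_P991864). The 60 bases of A_44_P195356 also crossed a gap and were spread over 5668 bases of the genome. A gene annotation of this build was not used here.

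The samples differed in ways other than age. The adult arrays were scanned alone, on 2 days and with an earlier release of the software, so that the adult group cannot be told apart from its scans. L1 and the old rats shared 1 scan day, and L2 to L4 were scanned on the other days. The median difference over the 23668 transcripts expressed in common was 0.15 between newborn and adult rats and -0.18 between adult and old rats on the log2 scale. The array medians ran from 42.1 to 87.7 intensity units in pups, from 81.6 to 162 in adults and from 37.1 to 55.3 in old rats. Markers of mature olfactory sensory neurons were present at every age, with summed levels of 7.77 to 8.91 in pups, 10.4 to 10.8 in adults and 11.0 to 11.4 in old rats on the log2 scale. A summed level is the log2 of the added intensities of a list's probes over the array median. The brightest probes of a list therefore weigh most in it. In whole tissue, fewer cells of a type and less RNA per cell cannot be told apart. Nothing in the labels says that the 4 rats of an age came from separate litters or cages.

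Mell1 separated the 3 ages completely. Its level was -1.42, -1.04, -1.23 and -1.02 in the L1 pups, -1.70, -1.85, -2.08, -1.60 and -2.0 in L2. The L3 pups had -1.08, -0.86, -1.43, -1.24 and -1.46 and the L4 pups -1.20, -0.88, -0.98, -0.79 and -1.27. The adult rats had 4.80, 4.59, 4.78 and 4.28, and the old rats 6.74, 6.84, 6.69 and 7.07. Every old rat was above every adult rat and every adult rat far above every pup. The L2 pups were all below the other pups, while L1, L3 and L4 overlapped.

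The newborn mean of Mell1 was -1.31 ± 0.36 (SD, n = 4 litters), the adult mean 4.61 ± 0.24 (SD, n = 4) and the old mean 6.84 ± 0.17 (SD, n = 4). The newborn minus adult difference was -5.93 on the log2 scale, or 60.9-fold, and the newborn minus old difference -8.15, or 284-fold, against SDs of 0.22 and 0.21 between rats of a group. These comparisons share the pups. Adult minus old was -2.22, or 4.67-fold. Relative to the median of all transcripts the 3 differences were -6.08, -8.12 and -2.04. Litter L1, scanned on the same day as the old rats, differed from them by -8.01. Before scaling, the spot measured 14.2 to 39.3 intensity units in pups, 1510 to 4712 in adults and 3959 to 6090 in old rats. With normexp background correction (offset 50) and quantile scaling together, the newborn difference was -4.06 from adults (16.7-fold) and -6.09 from old rats (68.1-fold). The probe was above background on 17 of the 19 pup arrays, the exceptions being in L2, and on all adult and old arrays.

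The levels of 5 other genes followed that of Mell1 most closely over the 27 rats, out of 12615 transcripts with a gene symbol. They were Cyp2b21 (Pearson's r = 0.992), a cytochrome P450, Spetex2b (0.990), Atp6v1g3 (0.988), a subunit of the proton pump, Ptp4a3 (0.987), a protein phosphatase, and Cml3 (0.983). The rats fall into 3 age clusters, so these values describe a shared order of the ages. Cyp2b21 averaged 0.36 in pups, 5.12 in adults and 6.52 in old animals. The summed markers of mature neurons followed the same order. By limma 3 of 8 were lower and 0 higher in adult than in old rats, against 31.4% and 15.9% of all transcripts. Sustentacular cell and gland markers summed to 11.2 to 12.4 in pups, 11.9 to 12.1 in adults and 12.8 to 13.0 in old rats. Of 6 such markers tested, 4 were lower and 0 higher in adult than in old rats. The part of either cell type in the Mell1 levels was not tested.

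**Figure D1:**
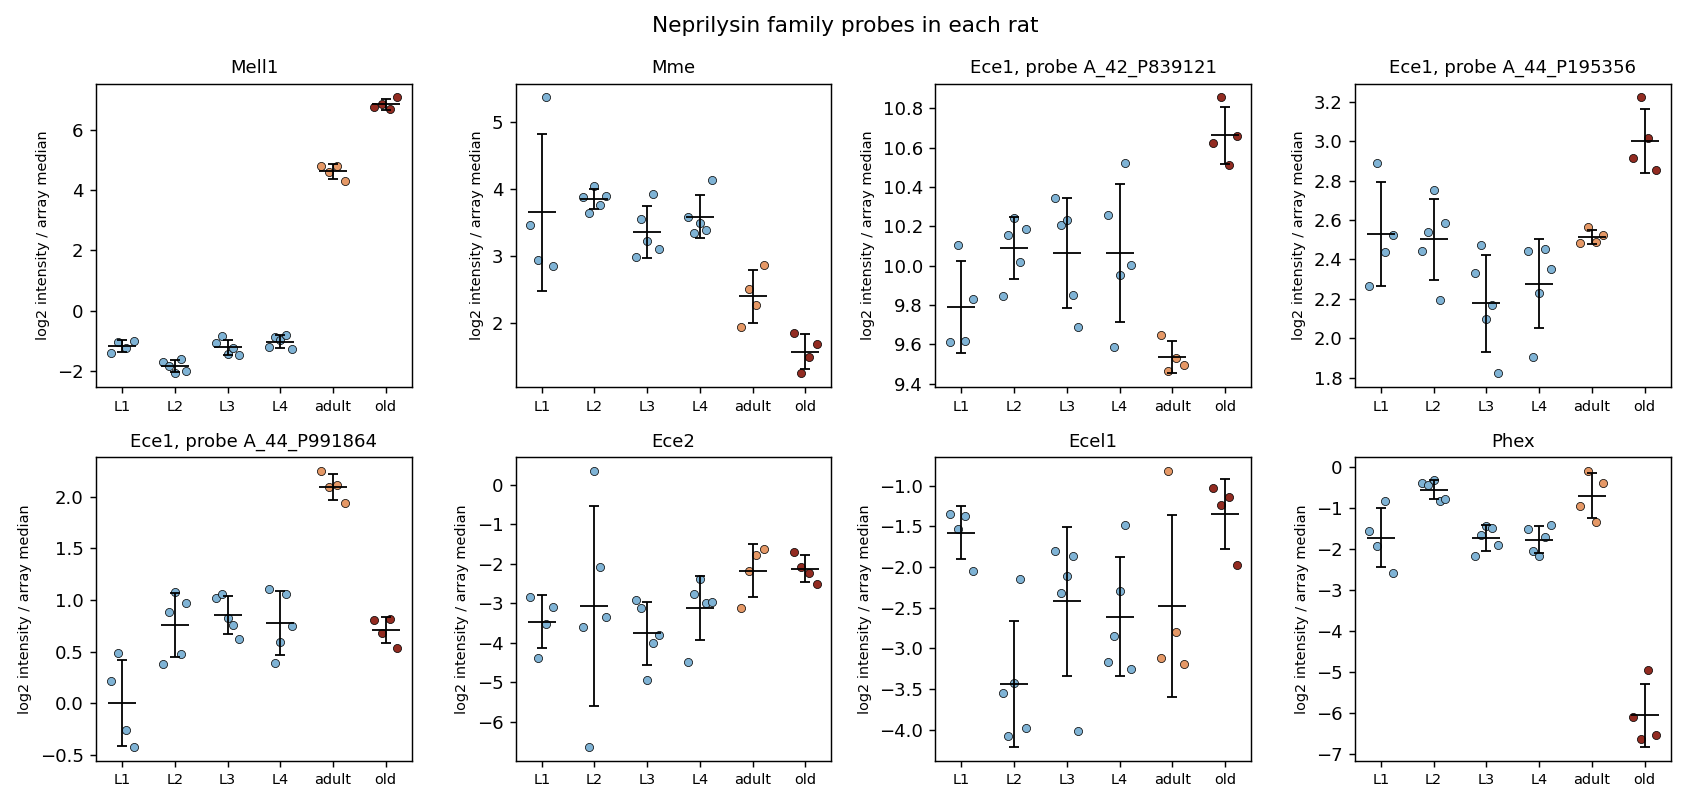
Level of each family probe (log2 of intensity over array median, y axis) in every rat of the 4 litters, the adult and the old group (x axis); points are rats, horizontal bars group means and error bars SDs, and the y axis differs between panels. Mell1 is between -2.08 and -0.79 in pups, 4.28 and 4.80 in adults and 6.69 and 7.07 in old rats, while Phex is lowest in old rats.

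Mme ran the other way. Its level in L1 was 3.47, 2.95, 5.37 and 2.85, and the pups of L2 ranged from 3.65 to 4.05, those of L3 from 2.98 to 3.94 and those of L4 from 3.35 to 4.14. The adult rats had 1.94, 2.51, 2.27 and 2.87 and the old rats 1.86, 1.25, 1.5 and 1.69. All pups were above all old rats and all adults above all old rats, but the lowest pup and the highest adult overlapped. The means were 3.62 ± 0.20 (SD, n = 4 litters), 2.40 ± 0.39 (SD, n = 4) and 1.58 ± 0.26 (SD, n = 4). Newborn rats were 1.22 above adults, or 2.32-fold, and 2.04 above old rats, or 4.11-fold, and adults were 0.82 above old rats, or 1.77-fold. L1 was 2.08 above the old rats of its scan day. The summed markers of osteoblasts and osteocytes had the same order of the ages, with medians of 12.7 in pups, 12.2 in adults and 10.3 in old rats. Pups (12.2 to 13.5) and adults (11.8 to 12.5) overlapped in this sum. Gene by gene, 2 of 9 bone markers were higher and 2 lower in newborn than in adult rats by limma, against 39.7% and 26.7% of all transcripts. L2 had the highest litter mean of Mme and the highest litter median of these bone markers. Cartilage markers (medians 7.81, 4.91 and 4.87) and immature neuron markers (10.4, 9.59 and 9.57) had this order too, with adult and old rats overlapping in both. The part of bone or these other cells in the Mme levels was not tested.

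Rat 11 of L1 stood apart for neprilysin. It had the highest Mme level of the 27 rats, and without it newborn rats were 1.07 above adults. A further probe, which the files describe as a partial neprilysin transcript and which carries no gene symbol, was at 1.92 in this pup and between -0.26 and 0.29 in the other L1 pups. The basal cell markers of this pup summed to 11.1, against 8.04 to 10.5 in the other L1 pups, and its markers of lymphocytes and granulocytes to 6.09, against 5.26 to 5.86. It was also the highest pup of L1 in the markers of bone (12.8 against 12.2 to 12.4), ensheathing glia and Schwann cells (9.49 against 8.62 to 9.31) and endothelium (7.71 against 6.79 to 7.65). It was the lowest in those of sustentacular cells and glands (11.19 against 11.20 to 11.82), respiratory ciliated cells (8.65 against 8.92 to 9.44) and immature neurons (9.99 against 10.06 to 10.52). The part of these cells in its Mme level was not tested.

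The Ece1 probes disagreed: old rats were above adults on A_42_P839121 and A_44_P195356 and below them on A_44_P991864. Before scaling, adult arrays averaged above old arrays on each of these probes: 85767 against 71884, 660 against 355 and 504 against 73.1 intensity units. Adult array medians were also higher, so the old above adult direction of A_42_P839121 and A_44_P195356 appears only after scaling. With A_42_P839121, the brightest, the adult rats had 9.65, 9.46, 9.53 and 9.49, the old rats 10.6, 10.9, 10.5 and 10.7, and the pups 9.59 to 10.5 with a median of 10.0. Every old rat was above every adult, with an adult minus old difference of -1.13, or 2.18-fold, and pups overlapped with each of them. Newborn rats were 0.47 above adults at the main scaling but the difference was -0.43 after quantile normalization and -0.38 with normexp and quantile, so that no order of newborn and adult rats holds for this probe. The adult minus old difference kept its sign under these other scalings but was much smaller, with the values given under the processing below. The spread between rats of a group was 0.25.

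With A_44_P195356 the adults had 2.48, 2.56, 2.49 and 2.53 and the old rats 2.91, 3.22, 3.02 and 2.85, again without overlap, an adult minus old difference of -0.49 or 1.40-fold, and pups ranged from 1.82 to 2.89. With A_44_P991864 the order was another one. Adults had 2.25, 2.09, 2.11 and 1.94, old rats 0.81, 0.68, 0.81 and 0.54, and pups -0.43 to 1.11. The adults were above every other rat on this probe, 2.83-fold above newborn and 2.62-fold above old rats. The direction of adult against old rats thus turned between probes of the same gene. The adult scans differed from the others, and their part in this was not tested.

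Ece2 and Ecel1 were faint. The Ece2 probe was above background on 6 of 8 adult and 2 of 8 old arrays, and on 1 of 19 pup arrays, that of rat 23 of L2, whose level of 0.35 was the highest of all rats. The newborn mean was -3.35 ± 0.33 (SD, n = 4 litters), the adult mean -2.17 ± 0.67 (SD, n = 4) and the old mean -2.13 ± 0.34 (SD, n = 4). Rats of the 3 ages overlapped, and the adult and old means differed by less than the spread between rats. The Ecel1 probe was above background on 7 of 19 pup arrays, 4 of them in L1, on 3 of 8 adult and on 6 of 8 old arrays. Its means were -2.51 ± 0.76 (SD, n = 4 litters), -2.48 ± 1.12 (SD, n = 4) and -1.34 ± 0.43 (SD, n = 4). The newborn minus adult difference was -0.03 and adult minus old -1.14, with rats of all ages overlapping.

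Phex was measured in pups and adults but not above background in old rats. Its level was -1.57, -1.92, -0.84 and -2.59 in L1. The L2 pups lay between -0.84 and -0.32, the L3 pups between -2.18 and -1.45 and the L4 pups between -2.18 and -1.43. The adults had -0.95, -0.11, -1.36 and -0.41. The old rats had -6.10, -6.64, -4.96 and -6.54, where -6.64 is the floor set on the scaled intensity. The probe was above background on 16 of 19 pup arrays, 7 of 8 adult arrays and 0 of 8 old arrays. Against the faintest signals well above background on the old arrays, adults were at least 2.74-fold and newborn rats at least 1.63-fold higher. These bounds compare the mean of the brighter group with the dimmest signal that each old array measured well above background. Newborn and adult rats overlapped, with means of -1.46 ± 0.59 (SD, n = 4 litters) and -0.71 ± 0.55 (SD, n = 4).

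The bone marker sum was, like Phex, lowest in old rats. Between pups and adults it did not follow Phex: mean Phex was lower and the median sum higher in pups. Single bone markers were split there, and Dmp1 and Alpl were, like Phex, lower in newborn than in adult rats. The 11 markers of osteoblasts and osteocytes summed to 12.2 to 13.5 in pups, 11.8 to 12.5 in adults and 10.0 to 10.8 in old rats on the log2 scale, with no overlap between old and other rats. Fainter markers such as Dmp1 added little to this sum. Sost was above background on no array of any group and Sp7 on none of the old arrays. L2, the litter highest in Phex, had sums of 12.9 to 13.5, with the highest median of the litters. Of the 9 bone markers that could be tested, 7 were higher in adult than in old rats and 1 lower, against 15.9% and 31.4% of all transcripts, and 2 were higher and 2 lower in newborn than in adult rats, against 39.7% and 26.7%. The part of bone cells in the Phex levels was not tested.

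**Figure D2:**
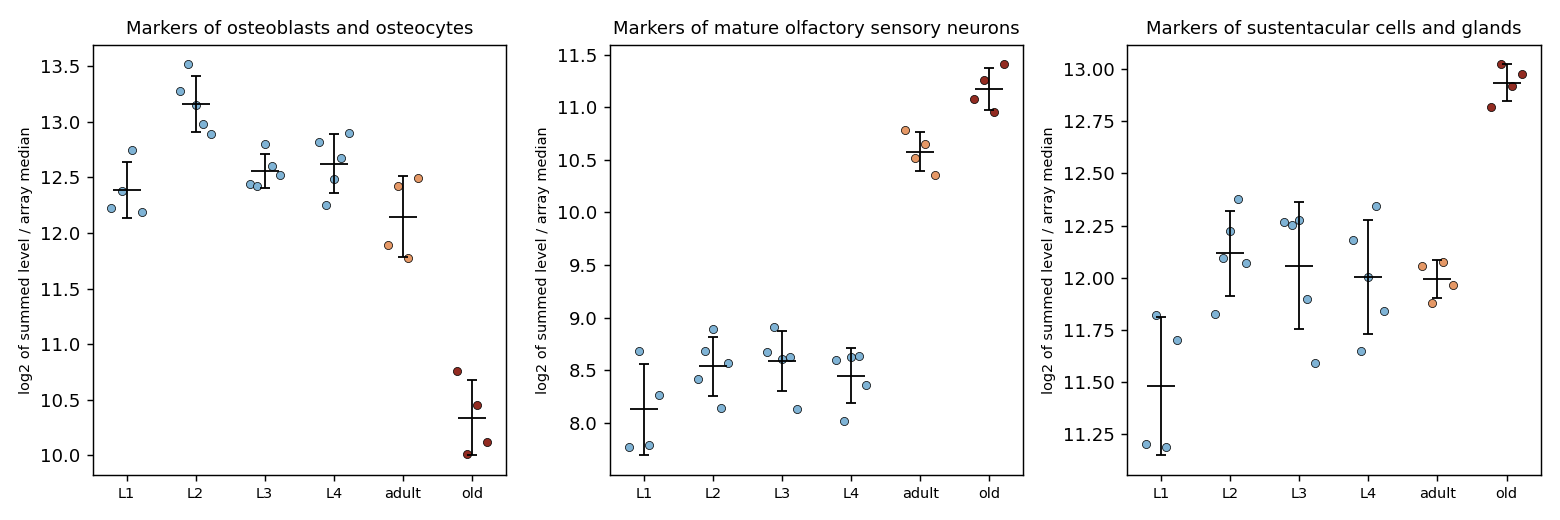
Summed level of the markers of bone cells, mature olfactory neurons and sustentacular cells and glands (log2 of the sum over array median, y axis) in every rat of each group (x axis), with group means and SDs. Bone markers are lowest in old rats (10.0 to 10.8), and the neuron markers are lowest in pups (7.77 to 8.91).

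Taking the family probes side by side, Mell1 was highest and Mme and Phex lowest in old rats. The probe of the partial neprilysin transcript had its lowest mean in adults. The age differences of each probe under the other ways of scaling are shown in the plot of differences.

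**Figure D3:**
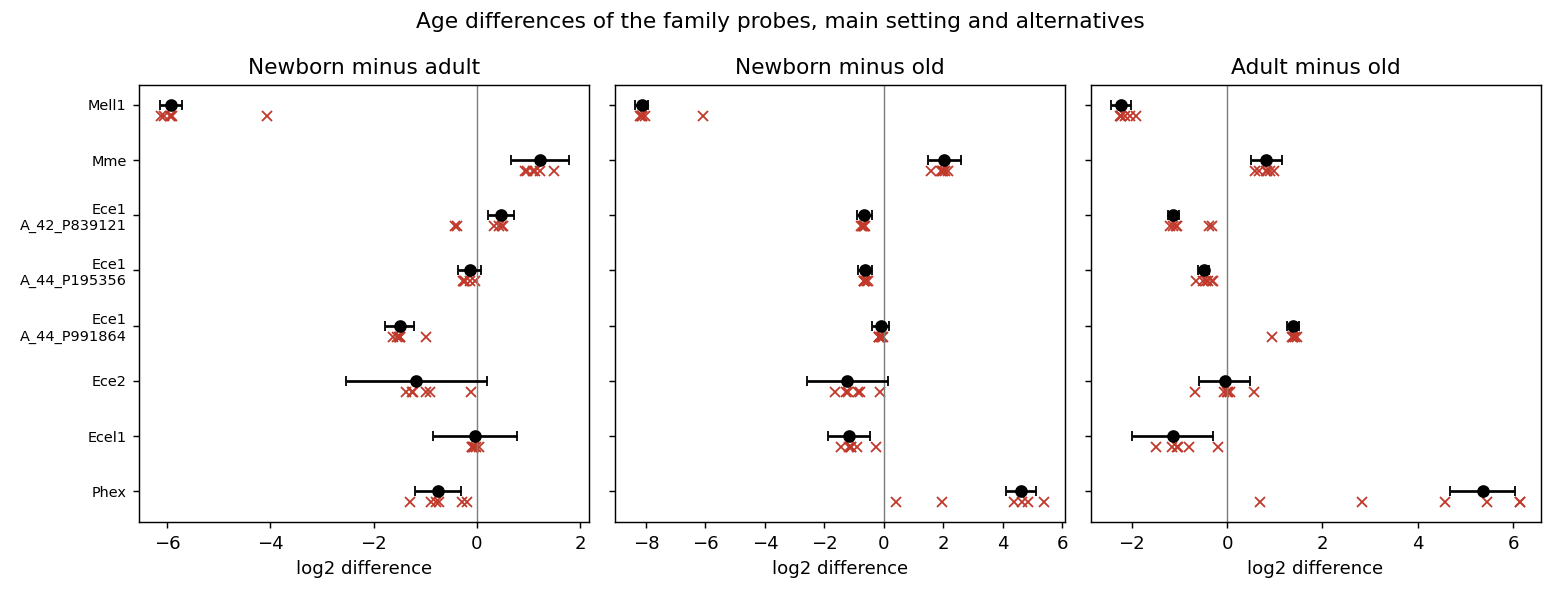
Log2 difference between ages (x axis) for each family probe (y axis); black points are the main setting with the pooled SD between rats of a group as error bars, and red crosses are other scalings, the authors' matrix and arrays of 1 side alone. The Mell1 differences stay below 0 in all settings drawn, and the newborn minus adult difference of Ece1 A_42_P839121 changes sign.

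The 2 sides of the nose allowed a test of the members that the choice of genes had not used. Side B minus side A of Mme was 0.61, 0.21, 0.25 and 1.19 in the adult rats and 0.15, 0.42, 0.03 and 0.43 in the old rats, on the log2 scale. Side B was higher in 8 of 8 rats, by 0.41 ± 0.11 (SE). The exact two-sided sign-flip permutation test gave p = 0.0078, the smallest that 8 rats can give, but limma with the rat as a block gave an unadjusted p of 0.0053 and an adjusted p of 0.50 over all 23668 transcripts. The difference of Mme therefore failed the correction. Some marker sums also differed between the sides. Those of cartilage were higher on side B in 8 of 8 rats (by 0.03 to 0.49), those of vascular endothelium in 7 (-0.12 to 0.47) and those of bone in 6 (-0.21 to 1.05). Those of mature neurons and of basal cells were higher on side B in 2 of 8 rats each, and the remaining lists in 3 to 5. The part of these tissues in the Mme difference was not tested. The probe of the partial neprilysin transcript was also higher on side B in 8 of 8 rats, by 0.58 ± 0.13 (SE), with an adjusted p of 0.48 by limma. The labels do not say which side A is, and the same letter need not be the same side in all rats.

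For comparison, limma called 0 transcripts between the sides at an adjusted p under 0.01, which is 0.0% of those tested, and 1536 had an unadjusted p under 0.05. Mell1 differed by -0.02 ± 0.07 (SE), with side B higher in 4 of 8 rats and an adjusted p of 0.999 by limma. The 3 Ece1 probes differed by -0.03, -0.06 and -0.05, with side B higher in 4, 3 and 3 of 8 rats. Phex was higher on side B in all adult rats, by 1.74, 0.31, 0.63 and 1.71, and not in all old rats, where it was near the floor. In the same adult rats the bone marker sum was higher on side B by 1.05, 0.32 and 1.01 in 3 rats and differed by less than 0.01 in rat 14. The part of bone in this was not tested. None of the 5 family probes expressed in common showed a side difference that changed between adult and old rats in limma's interaction test, where the smallest adjusted p was 0.76.

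**Figure D4:**
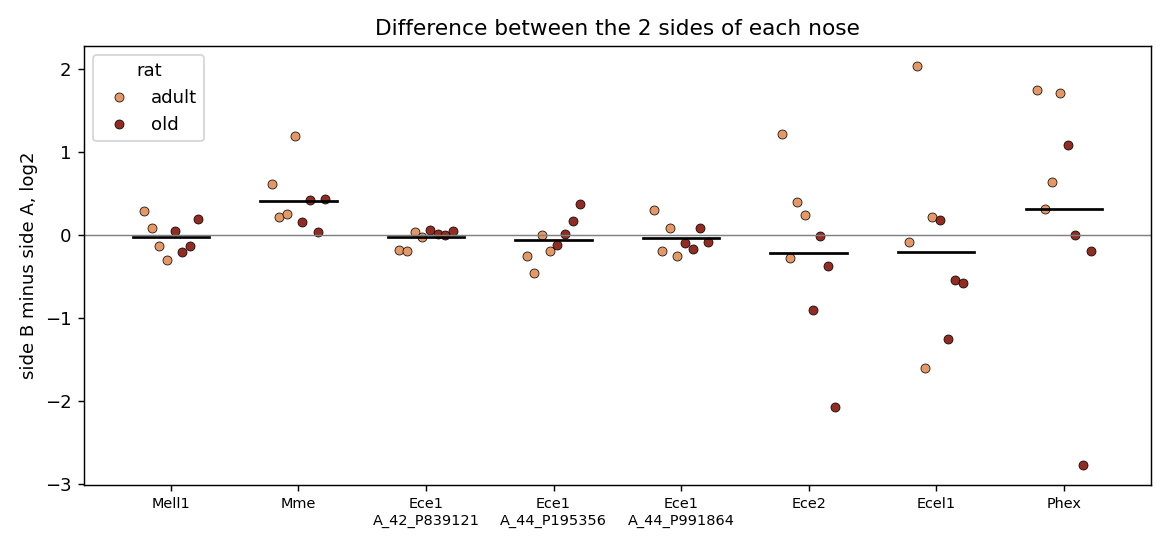
Side B minus side A (log2, y axis) of each family probe (x axis) in the 4 adult and 4 old rats; points are rats and black lines the means over 8 rats. For Mme all 8 points are above 0 (0.03 to 1.19), and Ece2, Ecel1 and Phex scatter widely.

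The peptides cut by these enzymes, their receptors, other peptidases and the mineral genes were tested across the ages with limma. Each litter was its own group, so these p-values measure the spread between rats within a litter or age group, not between litters. Among 96 listed genes 61 were expressed in common. Between newborn and adult rats 16 were higher and 17 lower in newborn rats, 26.2% and 27.9% of those tested, against 39.7% and 26.7% of all transcripts. Between newborn and old rats 12 were higher and 20 lower in newborn rats, against 28.4% and 31.5% of all transcripts. Between adult and old rats 10 were higher and 18 lower in adults, against 15.9% and 31.4% of all transcripts. With L1 alone against the old rats of its scan day, 11 were higher and 20 lower, against 17.9% and 30.6% of all transcripts.

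Of 16 peptide ligands tested, 3 were higher and 2 lower in newborn than in adult rats (18.8% and 12.5%, against 39.7% and 26.7% of all transcripts). Between newborn and old rats 2 were higher and 5 lower in newborn rats (12.5% and 31.2%, against 28.4% and 31.5%). Edn3, the endothelin that acts mainly through the B receptor, fell from 1.52 in newborn to -0.82 in adult rats, 5.07-fold (adjusted p = 6.6e-12, limma). Calcb, which encodes a calcitonin gene related peptide, was 4.31-fold higher in newborn than in adult rats, with adult rats spread widely (SD 1.37). The tachykinin Tac4 was at 2.22 in pups, 3.91 in adults and 4.17 in old animals, 3.24-fold lower in newborn than in adult and 3.88-fold lower than in old rats (adjusted p = 1.4e-10, limma). Agt, the precursor of angiotensins, was 3.86-fold lower and Nppc, C-type natriuretic peptide, 2.96-fold lower in newborn than in old rats. Between adult and old rats 4 ligands were lower in adults and 0 higher by limma, also 0 higher at an unadjusted p under 0.05. The lower ones are 25% of those tested, against 31.4% lower and 15.9% higher of all transcripts. The 4 lower ligands were Nppc (2.16-fold), Calca (1.96-fold), Edn3 and Pomc, the last of these outside the naming rule. For Nppc the adjusted p was 0.024 with scan day as a random block. The median difference of the ligands was 0.46 between newborn and adult rats, against 0.15 for all transcripts.

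Of 15 peptide receptors tested, 8 were higher and 1 lower in newborn than in adult rats, and their median difference was 0.76. These counts are 53.3% and 6.67%, against 39.7% and 26.7% of all transcripts. Ednrb, the endothelin B receptor, was at 2.77 in pups, 1.15 in adults and 0.99 in old animals, 3.07-fold higher in newborn than in adult rats. Agtr1a, an angiotensin receptor, was 2.49-fold and Ramp3, a partner of the calcitonin receptor family, 2.33-fold higher in newborn rats (adjusted p = 1.1e-12 and 3.9e-11, limma). Between newborn and old rats 4 were higher and 6 lower in newborn rats (26.7% and 40%, against 28.4% and 31.5% of all transcripts). Ntsr2, a neurotensin receptor, was 5.38-fold lower in newborn than in old rats. Ramp1, which with its partner forms the receptor of calcitonin gene related peptide, was at 5.60 in pups, 5.53 in adults and 7.60 in old animals, 4.22-fold lower in adult than in old rats. Oprd1, the delta opioid receptor that binds enkephalins, was 3.07-fold lower in adult than in old rats, among 6 receptors lower and 1 higher. These counts are 40% and 6.67%, against 31.4% and 15.9% of all transcripts.

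The other peptidases and processing enzymes moved in both directions. In newborn against adult rats 5 of 20 were higher and 7 lower (25% and 35%, against 39.7% and 26.7% of all transcripts). In newborn against old rats 1 was higher and 7 lower (5% and 35%, against 28.4% and 31.5%). In adult against old rats 3 were higher and 7 lower (15% and 35%, against 15.9% and 31.4%). Ace, the angiotensin converting enzyme, rose from 1.05 in newborn to 2.05 in adult and 2.73 in old rats, 3.21-fold between newborn and old (adjusted p = 2.3e-09, limma). Pam, which amidates peptides, was 2.53-fold and Pcsk2, a prohormone convertase, 2.42-fold lower in newborn than in old rats. Pcsk2 was also 2.64-fold lower in adult than in old rats. Npepps, an aminopeptidase of the cytosol, was lowest in adults, 2.18-fold below newborn and 2.10-fold below old rats. Cpd, carboxypeptidase D, was 2.15-fold lower in newborn than in adult rats.

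Genes of mineral and phosphate handling were the list closest to Phex. Between newborn and adult rats 7 of 10 were lower and 0 higher in newborn rats by limma, with 0 higher also at an unadjusted p under 0.05. Of all transcripts 26.7% were lower and 39.7% higher. Between adult and old rats 6 were higher and 1 lower in adults, against 15.9% and 31.4% of all transcripts. The median adult minus old difference of the mineral genes was 1.49, against -0.18 for all transcripts. Dmp1, a matrix protein of osteocytes, was at 3.99 in pups, 5.18 in adults and 1.38 in old animals, 14.0-fold higher in adult than in old rats (adjusted p = 8.0e-11, limma). Alpl, the alkaline phosphatase of mineralizing cells, was 14.0-fold higher in adult than in old rats and 5.65-fold higher in newborn than in old rats. Mepe, another osteocyte matrix protein, was 6.51-fold higher in newborn than in old rats. Galnt3, which glycosylates the phosphate hormone Fgf23, was 3.54-fold and Ankh, a pyrophosphate transporter, 2.84-fold lower in newborn than in adult rats. Dmp1, Mepe and Alpl are also among the 11 bone markers. Alpl was 2.47-fold lower in newborn than in adult rats, with an adjusted p of 0.011 when the litter means were the replicates.

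With normexp and quantile scaling together, 10 of the 32 differences that gave the listed genes their names were smaller by over 1.5 times. Between newborn and adult rats Edn3 was then 2.17-fold, Galnt3 1.90-fold and Ramp3 1.54-fold apart. Between newborn and old rats the folds were 4.07 for Dmp1, 3.77 for Mepe, 3.06 for Alpl, 2.99 for Ntsr2 and 1.90 for Nppc, and between adult and old rats 9.30 for Alpl and 2.72 for Ramp1. All 10 calls remained. When the litter means were the replicates, the adjusted p by limma between newborn and adult rats was 1.9e-08 for Edn3, 7.6e-07 for Agtr1a and 1.9e-07 for Ramp3. Between newborn and old rats it was 1.5e-06 for Tac4 and 1.4e-06 for Ace.

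**Figure D5:**
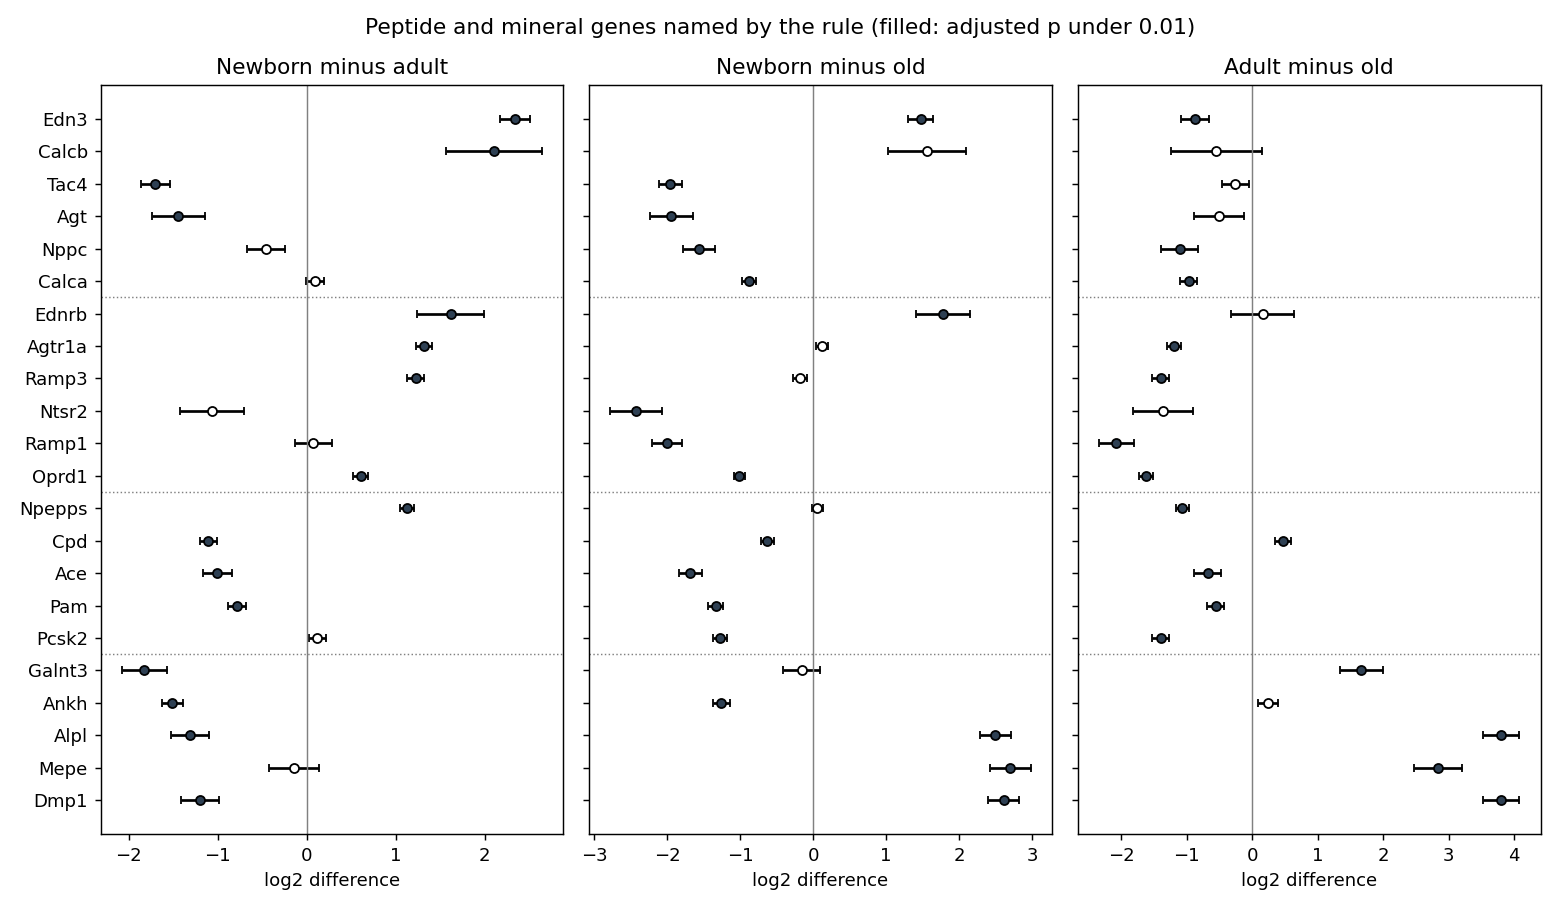
Log2 difference between ages (x axis) of the 22 peptide, receptor, peptidase and mineral genes named by the rule (y axis; dotted lines separate the 4 lists), with SEs from limma; filled points have an adjusted p under 0.01. Dmp1, Alpl and Mepe lie farthest to the right in adult minus old rats, and Ramp1 farthest to the left.

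The remaining cell markers gave a mixed picture between the ages. In newborn against old rats, where 28.4% of all transcripts were higher and 31.5% lower in newborn rats, 8 of 8 markers of mature neurons and 6 of 6 of sustentacular cells and glands were lower in newborn rats. Among markers of immature neurons 6 of 8 were higher and 1 lower, of basal cells 4 of 7 higher, of cartilage 4 of 5 higher and of vascular endothelium 3 of 5 higher in newborn rats. The summed basal cell markers ran the other way, with medians of 8.61 in pups and 9.25 in old rats. Markers of ensheathing glia and Schwann cells had 2 of 6 lower, those of lymphocytes and granulocytes 1 of 4 higher and 1 lower, and those of respiratory ciliated cells 0 of 5 in either direction by limma, with 1 lower at an unadjusted p under 0.05. S100b was above background in no group and Tek in none. The part of these cells in the levels of Mell1, Mme, Ece1, Ece2 and Ecel1 was not tested.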

How the data were processed

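Total RNA of rat olfactory epithelium was labelled with Cy3 and hybridized to Agilent whole rat genome 44K arrays. The authors deposited for each array the Feature Extraction output (releases 9.5.1.1 and 9.5.3.1), in which the spot intensity is background-subtracted and not normalized between arrays, with the mean spot intensity, the local background intensity and the flags of each spot. The authors also deposited a matrix of GeneSpring ratio values, scaled by the median of the array and by a constant per probe, used as an alternative only. The deposited flags, each 0 or 1, gave the calls above background.

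Control spots and spots flagged as outliers (890 values on 494 probes) were left out, repeated spots averaged, intensities divided by the array median, floored at 0.01 and put on the log2 scale, and the 2 arrays of a rat averaged. A probe counted as expressed with 3 arrays of each litter and 6 of 8 adult and of old arrays above background; 23668 probes and 5 of the 8 family probes passed in every group, and Ece2, Ecel1 and Phex did not. Ages were compared with limma 3.58.1 (R 4.3.3) over 6 groups, and sides with the rat as a block, with Benjamini-Hochberg adjustment over these probes and an adjusted p under 0.01 for a call. In simulated data with the group sizes of the 27 rats and 23668 genes, 200 genes were changed in pups by 1 or 2 on the log2 scale. Between newborn and adult rats 85% of those changed by 1 were recovered. The simulated noise was independent between rats, without litter, slide or scan day effects, and far fewer genes changed than were called in the data. The recovery in the real comparison may therefore differ. A listed gene was represented by its brightest probe on average. Named were all family probes, the 5 genes with the highest correlation with Mell1, and from each of 4 lists the called genes with the largest differences, 3, 3 and 2 in the 3 age comparisons. Symbols came from the files or, for 10735 probes, from RefSeq accessions, and probe sequences and coordinates (build rn3) from the files. The members and the lists were chosen with earlier results of these data known. Alternatives were other scalings, normexp background correction, no filter, random blocks for rat, slide or scan day, litter means, and leaving out rats. The number of arrays limits the precision.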

Additional observations from a re-analysis of the deposited data

Results flagged for a closer look

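Of 48 sets of values (8 family probes in 6 groups of rats), 3 had a rat whose gap to its nearest neighbour took up more of the group's range than Dixon's 95% limit. Chance alone gives about 1 such set in 20. Ecel1 in adult rat 14 was at -0.82, against -3.19, -3.12 and -2.80 in the other adults, and the high value came from its side B array. Ecel1 in rat 30 of L3 was at -4.01, against -2.33 to -1.81 in the other pups of the litter. Ece2 in rat 31 of L4 was at -4.49, against -2.98 to -2.38 in its litter mates. Both probes were faint, and the cause of these values was not tested.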

How the results depend on the processing

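The age differences of Mell1, Mme and Phex kept their direction in all settings run. With normexp background correction and quantile scaling the newborn difference of Mell1 was -4.06 from adults and -6.09 from old rats, and with quantile scaling its adult minus old difference was -1.91. Ece1 A_42_P839121 reversed between newborn and adult rats, to -0.43 with quantile and -0.38 with normexp and quantile scaling, and its adult minus old difference was -0.32 and -0.37. With normexp and quantile, Ecel1 was -0.25 (newborn minus old) and -0.19 (adult minus old), and Phex -0.29, 0.40 and 0.69 in the 3 age comparisons. Phex against old rats was 1.94 (newborn) and 2.82 (adult) with the 75th percentile, and 5.40 and 6.14 in the authors' matrix. Normexp adds an offset of 50, which draws faint probes together. With side A arrays alone Phex was -0.20 (newborn minus adult) and 4.57 (adult minus old), and Ece2 -0.67 (adult minus old); with side B alone they were -1.30, 6.14 and 0.57. The causes of the other changes were not tested.

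Leaving out each rat gave -6.04 to -5.87 for Mell1 between newborn and adult rats and 1.06 to 1.37 for Mme. The adult minus old difference of Ece2 then ran from -0.23 to 0.27 (without adult rat 13), and the newborn minus adult difference of Ecel1 from -0.27 to 0.52 (without adult rat 14); at the main setting both were near 0. Counts of listed genes called, by age comparison and direction, stayed within 1.5 times the counts given in all settings. Of the listed genes' calls given by name, checked in 8 settings each, 254 held, 2 were lost (Nppc and Alpl, above) and 0 reversed, though 10 of 32 folds were smaller by over 1.5 times with normexp and quantile scaling. No paired analysis was possible between the ages because no rat number is shared by 2 groups. Without the replicate block of the rat, side B minus side A of Mme was 0.41, and 0.30 to 0.47 when a rat was left out; no family probe passed the threshold between sides in any setting.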
